A study of Mus musculus with 11 samples.

Results

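The genes described here are 10 transcription factor genes known from the luminal lineage of the mammary epithelium, chosen by name among the 27179 genes counted in each library. They comprise the ETS factors *Elf5*, *Ehf* and *Elf3*, the zinc finger factor *Gata3*, the forkhead factor *Foxa1*, the grainyhead-like factors *Grhl1* and *Grhl2*, and the AP-2 factors *Tfap2a*, *Tfap2b* and *Tfap2c*. RNA-seq counts were used from 11 libraries, all of mouse mammary epithelium. MaSC/basal cells (CD24+CD29hi, enriched in mammary stem cells), luminal progenitor-enriched cells (LP, CD24+CD29loCD61+) and mature luminal-enriched cells (ML, CD24+CD29loCD61-) were sorted from glands of virgin wild type FVB/N females, with 3 libraries for each population. The mice are given as 8 weeks old in the labels and as 8 to 10 weeks in the study's methods. Mammosphere cells (1 library) were MaSC/basal cells of the same strain and age kept for 1 week in non-adherent culture, and CommaDB (1 library) was the established line CommaD-βGeo, made from Balb/c mammary gland at mid-pregnancy. The sort enriches for each population and does not purify it. The name of the mammosphere library joins a pair of identifiers, so it may combine cultures. The submitted name of MaSC/basal replicate 1 contains p53, although its genotype is given as wild type. The study's methods call the 3 samples of each population independent, but neither they nor the labels say whether these came from separate mice. The p-values set each difference against a spread between replicate libraries that the fit estimates jointly over the sample types and genes.

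Luminal cells line the ducts and alveoli of the mammary gland, and they arise from progenitors that give rise to alveolar, milk-producing cells and to hormone-sensing ductal cells. ELF5 is needed for the alveolar branch, FOXA1 opens chromatin for the oestrogen receptor in the hormone-sensing branch, and GATA3 maintains luminal identity. ELF3 and EHF are ETS factors of epithelia, grainyhead-like proteins maintain genes of epithelial junctions, and AP-2 proteins act in mammary development. The comparison asked which of these genes were shared by LP and ML cells and which belonged to 1 luminal population.

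Library totals lay between 19958838 and 75795034 counted reads, and 3 reads corresponded to between 0.0399 and 0.160 CPM, the reads of a gene relative to the library total. CPM are scaled here with TMM factors, which correct for differences in RNA composition. All 10 genes were among the 15422 genes tested. The summed CPM of 5 luminal markers was between 1402 and 1692 in MaSC/basal libraries, between 12763 and 14560 in LP libraries and between 13761 and 16399 in ML libraries. That of 7 basal markers lay between 17971 and 24612 in MaSC/basal, between 115 and 231 in LP and between 83.8 and 406 in ML libraries. In sorted libraries the markers of other cell types summed to at most 10.97 CPM (immune), 89.4 (endothelial), 735 (fibroblast), 1.71 (adipocyte), 6.56 (skeletal muscle) and 336 (pericyte, of which *Notch3* made up 335). In bulk RNA, fewer cells of a type and less RNA per cell cannot be told apart, and this holds for every level below.

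*Elf5* (chr2:103412098-103450989, plus strand) and *Ehf* (chr2:103263431-103303275, minus strand, all positions GRCm38) are neighbours, with 108822 bases and 1 counted gene, *A930006I01Rik*, between them. *Elf3* lies at chr1:135253574-135258472 (minus strand), *Gata3* at chr2:9857078-9887953 (minus strand) and *Foxa1* at chr12:57540628-57548029 (minus strand). *Grhl1* lies at chr12:24572232-24617391 (plus strand) and *Grhl2* at chr15:37232821-37363569 (plus strand). *Tfap2a* lies at chr13:40713802-40738238 (minus strand), *Tfap2b* at chr1:19208908-19238845 (plus strand) and *Tfap2c* at chr2:172545678-172558622 (plus strand). Promoters of 7 of the genes, in 10 windows, were found in a RefSeq table of GRCm38, and the 250 bases before each start were searched on both strands. Parts of 4 windows are shown. They belong to *Elf5* (its second listed start), called higher in LP than in ML, and *Foxa1*, the gene called higher in ML. The others belong to genes called alike in both (*Elf3* and *Grhl1*). The windows shown for *Elf5* and *Foxa1* lie wholly within the gene positions given above, and that of *Grhl1* overlaps its gene in part. Each stretch is the longest run of its window outside exons annotated by GENCODE, written 5′ to 3′ on the gene's strand, and capitals mark a motif match.
Elf5, chr2:103423818-103424061, plus strand: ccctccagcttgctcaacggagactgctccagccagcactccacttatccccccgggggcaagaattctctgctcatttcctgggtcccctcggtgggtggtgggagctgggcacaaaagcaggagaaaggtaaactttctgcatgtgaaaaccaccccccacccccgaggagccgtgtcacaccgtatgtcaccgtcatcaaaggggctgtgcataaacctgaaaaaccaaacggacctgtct
Elf3, chr1:135258569-135258722, minus strand: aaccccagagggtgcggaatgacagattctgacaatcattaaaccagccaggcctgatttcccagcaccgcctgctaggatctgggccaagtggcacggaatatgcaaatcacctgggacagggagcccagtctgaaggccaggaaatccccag
Foxa1, chr12:57546122-57546361, minus strand: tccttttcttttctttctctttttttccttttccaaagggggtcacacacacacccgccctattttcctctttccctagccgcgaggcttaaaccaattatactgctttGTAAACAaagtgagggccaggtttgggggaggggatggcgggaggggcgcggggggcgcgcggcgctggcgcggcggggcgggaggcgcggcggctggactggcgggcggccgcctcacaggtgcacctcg
Grhl1, chr12:24572037-24572282, plus strand: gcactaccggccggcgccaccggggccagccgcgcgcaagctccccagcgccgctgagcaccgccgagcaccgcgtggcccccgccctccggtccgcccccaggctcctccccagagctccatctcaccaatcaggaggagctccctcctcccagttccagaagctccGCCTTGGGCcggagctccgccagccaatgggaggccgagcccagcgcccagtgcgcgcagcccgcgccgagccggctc
The capitals in *Foxa1* are a match to the FOXA motif TGTTTAC on the opposite strand, between 141 and 135 bases before the start, and those in *Grhl1* a match to the AP-2 motif GCCNNNGGC, which reads alike on both strands, between 82 and 74 bases before the start. The window of *Gata3* held 3 matches to the AP-2 motif, and none of these matches overlapped another. That window lies within the *Gata3* gene, and all 250 of its bases are in exons annotated by GENCODE. Among 32851 promoters of the same length, 3.17% held the FOXA motif and 13.7% the AP-2 motif. The matching windows of *Gata3* and *Grhl1* were 70.0% and 75.6% G and C, against a median of 52.4% over all promoters. The part of base composition in the AP-2 matches was not tested. The GRHL motif AACCGGTT (0.12% of promoters), the GATA motif AGATAA (9.99%), the ETS motif CCGGAAG (6.91%) and the TATA box TATAAA (12.4%) were in none of the 10 windows. These are matches of letters in 1 short window, and factor binding was not measured.

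*Elf5* had the largest fold change of the 10 members between the luminal populations, with LP above ML. Its level was 5.55, 5.78 and 4.43 CPM in the MaSC/basal libraries, 430, 346 and 405 CPM in LP and 87.0, 137 and 61.7 CPM in ML (replicates 1, 2 and 3 in this and the following lists). All LP libraries were above all ML libraries, and all ML libraries above all MaSC/basal libraries. The log2 fold change of LP over MaSC/basal was 6.23 (SE 0.32, edgeR adjusted p = 3.68e-07), that of ML over MaSC/basal was 4.18 (SE 0.29, edgeR adjusted p = 1.49e-06) and that of LP over ML was 2.04 (SE 0.26, edgeR adjusted p = 9.45e-04). ML cells held 18.2-fold the MaSC/basal level and LP cells 74.9-fold. Within batches 1, 2 and 3 the LP minus ML difference was 2.31, 1.33 and 2.71 on the log2 scale. The batch with the smallest difference holds ML replicate 2, which had the highest *Elf5* of the ML libraries. In that library 4 of 4 LP markers (*Kit*, *Aldh1a3*, *Cd14* and *Itgb3*, which encodes the CD61 of the sort) were also higher than in the other ML libraries, and their summed CPM of 1136 was the highest of a range that began at 385 in ML and ran between 1745 and 2216 in LP. None of these markers was at 0 in any sorted library. Without ML replicate 2 the LP minus ML difference of *Elf5* was 2.40.

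*Ehf* followed *Elf5*. It was counted at 6.65, 5.46 and 6.48 CPM in MaSC/basal, 514, 270 and 350 CPM in LP and 145, 156 and 122 CPM in ML libraries. The 3 populations again did not overlap, although the LP libraries differed among themselves by more than those of *Elf5*. The log2 fold change was 5.93 for LP over MaSC/basal (SE 0.27, edgeR adjusted p = 2.10e-07), 4.51 for ML over MaSC/basal (SE 0.26, edgeR adjusted p = 4.63e-07) and 1.42 for LP over ML (SE 0.22, edgeR adjusted p = 0.00182). Within batches the LP minus ML difference was 1.82, 0.79 and 1.52. Across the 9 sorted libraries the log2 CPM of *Elf5* and *Ehf* had a Pearson correlation of 0.987, and across all 11 libraries of 0.922. Members on different chromosomes came close to this or passed it. *Elf3* and *Grhl1* had 0.983 across the sorted libraries, and *Elf3* and *Gata3* had 0.935 across all 11. Other pairs were far lower, down to -0.88 for *Foxa1* and *Tfap2c* in the sorted libraries. The libraries share the contrast between populations, so these values describe and do not test a relation.

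*Elf3* rose in both luminal populations, to overlapping levels. Its level was 39.8, 57.8 and 42.8 CPM in MaSC/basal, 475, 372 and 412 CPM in LP and 451, 383 and 377 CPM in ML libraries, and the LP and ML ranges overlapped. The log2 fold change was 3.17 for LP (SE 0.19, edgeR adjusted p = 7.70e-07) and 3.11 for ML (SE 0.19, edgeR adjusted p = 6.45e-07) over MaSC/basal. LP and ML differed by 0.06 on the log2 scale (SE 0.17, edgeR adjusted p = 0.834), and the sign of that difference turned with the scaling. Per length, *Elf3* was the most abundant of the 10 genes in LP cells, at a mean of 210 ± 25.99 RPKM (SD, n = 3), against 175 ± 19.3 for *Elf5* and 86.1 ± 28.4 for *Ehf*. In ML cells *Elf3* stood at 202 ± 20.6 RPKM, *Foxa1* at 99.3 ± 25.0, *Elf5* at 42.5 ± 17.2 and *Ehf* at 32.2 ± 4.00. In MaSC/basal cells *Elf3* was at 23.4 ± 4.84 RPKM, and *Elf5* and *Ehf* at 2.34 ± 0.32 and 1.41 ± 0.15.

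*Foxa1* rose in both luminal populations and was higher in ML than in LP. It was counted at 5.19, 5.62 and 3.92 CPM in MaSC/basal, 75.2, 77.1 and 122 CPM in LP and 310, 241 and 400 CPM in ML libraries. Every ML library was above every LP library, and every LP library above every MaSC/basal library. The log2 fold change was 4.22 for LP over MaSC/basal (SE 0.28, edgeR adjusted p = 1.25e-06), 6.01 for ML over MaSC/basal (SE 0.30, edgeR adjusted p = 2.68e-07) and -1.79 for LP over ML (SE 0.25, edgeR adjusted p = 0.00112). Within batches the LP minus ML difference was -2.04, -1.64 and -1.71. LP replicate 3 had the highest *Foxa1* of the LP libraries, and 6 of 6 ML markers (*Esr1*, *Pgr*, *Prlr*, *Ly6a*, *Prom1* and *Cited1*) were highest there too, with a sum of 1733 CPM in a range that began at 676 in LP and ran between 4248 and 6684 in ML. None of the 6 was at 0 in a sorted library, and without LP replicate 3 the LP minus ML difference of *Foxa1* was -2.04. The part that such markers have in the *Elf5* and *Foxa1* values was not tested.

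Within single libraries, the ratio of *Elf5* to *Foxa1* per length describes both genes together. The LP and ML ranges overlapped for neither gene, and the genes differed in opposite directions. The ratio therefore had to part LP from ML and is no further result. *Elf5* stood at 8.13, 6.37 and 4.71 times the *Foxa1* RPKM in LP replicates 1, 2 and 3, and at 0.40, 0.81 and 0.22 times in the ML replicates. In MaSC/basal libraries, where both genes were low, the ratio was between 1.46 and 1.60. *Foxa1* was the more abundant of the 2 transcripts per length in each ML library and the less abundant in each of the other libraries, the cultured ones included. In CommaDB this rests on 20 reads of *Foxa1* and 110 of *Elf5*.

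*Gata3* rose in both luminal populations by about its own MaSC/basal level, and MaSC/basal cells also held it. Its level was 75.3, 91.2 and 99.1 CPM in MaSC/basal, 206, 178 and 174 CPM in LP and 173, 143 and 199 CPM in ML libraries. LP and ML libraries were all above the MaSC/basal libraries and overlapped with each other. The log2 fold change over MaSC/basal was 1.07 in LP (SE 0.16, edgeR adjusted p = 2.81e-04) and 0.96 in ML (SE 0.16, edgeR adjusted p = 5.36e-04), and LP and ML differed by 0.11 (SE 0.16, edgeR adjusted p = 0.619). Within batches 1, 2 and 3 this last difference was 0.25, 0.31 and -0.20, so its sign was not the same in each batch.

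*Grhl1* and *Grhl2* parted. *Grhl1* was counted at 14.9, 14.2 and 11.8 CPM in MaSC/basal, 77.7, 66.7 and 86.3 CPM in LP and 82.2, 76.5 and 104 CPM in ML libraries. The luminal libraries were all above the MaSC/basal libraries, with log2 fold changes of 2.49 in LP (SE 0.17, edgeR adjusted p = 1.55e-06) and 2.69 in ML (SE 0.17, edgeR adjusted p = 8.61e-07), and LP and ML overlapped (difference -0.19, SE 0.16, edgeR adjusted p = 0.391). *Grhl2* was at 112, 129 and 107 CPM in MaSC/basal, 134, 111 and 163 CPM in LP and 138, 136 and 167 CPM in ML libraries. None of its 3 contrasts passed the test: the log2 difference was 0.22 for LP over MaSC/basal (SE 0.16, edgeR adjusted p = 0.263), 0.34 for ML over MaSC/basal (SE 0.16, edgeR adjusted p = 0.0954) and -0.12 for LP over ML (SE 0.16, edgeR adjusted p = 0.615). The ML and MaSC/basal ranges of *Grhl2* did not overlap, whereas LP replicate 2 lay within the MaSC/basal range. Of the summed RPKM of both genes, *Grhl1* made up between 13.3% and 15.7% in MaSC/basal libraries, between 42.6% and 45.7% in LP libraries and between 44.1% and 46.7% in ML libraries.

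The AP-2 genes moved in different directions. *Tfap2a* was counted at 35.8, 35.6 and 37.9 CPM in MaSC/basal, 58.0, 67.7 and 59.0 CPM in LP and 65.1, 59.1 and 81.9 CPM in ML libraries. It rose in both luminal populations without overlap, by a log2 fold change of 0.76 in LP (SE 0.14, edgeR adjusted p = 0.00113) and 0.91 in ML (SE 0.14, edgeR adjusted p = 3.09e-04). LP and ML differed by -0.16 (SE 0.14, edgeR adjusted p = 0.423).

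*Tfap2c* was the only member that fell. It was counted at 204, 281 and 145 CPM in MaSC/basal, 141, 79.9 and 109 CPM in LP and 43.2, 45.1 and 32.6 CPM in ML libraries. The 3 populations did not overlap, although the highest LP library and the lowest MaSC/basal library were close. LP was below MaSC/basal by a log2 fold change of -0.93 (SE 0.27, edgeR adjusted p = 0.0130), ML below MaSC/basal by -2.38 (SE 0.28, edgeR adjusted p = 4.70e-05), and LP above ML by 1.45 (SE 0.27, edgeR adjusted p = 0.00402). The LP call depended on MaSC/basal replicate 2, without which the log2 fold change was -0.67 (edgeR adjusted p = 0.0564). Without LP replicate 2 it was -0.73, with an edgeR adjusted p of 0.0497 that was barely under the threshold. The call held under 16 of 17 alternatives. Within batches 1 and 2 the LP minus MaSC/basal difference was -0.53 and -1.34.

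*Tfap2b* passed no test. It was at 77.7, 94.2 and 64.5 CPM in MaSC/basal, 72.3, 53.4 and 87.3 CPM in LP and 87.6, 89.6 and 133 CPM in ML libraries. The LP range lay just below the ML range, and both overlapped MaSC/basal. The log2 difference was -0.15 for LP over MaSC/basal (SE 0.23, edgeR adjusted p = 0.594), 0.39 for ML over MaSC/basal (SE 0.23, edgeR adjusted p = 0.165) and -0.54 for LP over ML (SE 0.23, edgeR adjusted p = 0.0964). Once the library batch was added as a replicate block, the LP over ML difference was -0.54 with an edgeR adjusted p of 0.0379, and within batches it was -0.28, -0.75 and -0.61.

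Per length, the makeup of the AP-2 genes shifted with the population. *Tfap2c* made up between 68.5% and 78.2% of the summed RPKM of the 3 AP-2 members in MaSC/basal libraries, between 47.2% and 61.3% in LP libraries and between 18.8% and 31.4% in ML libraries, and these ranges did not overlap. *Tfap2a* held between 9.28% and 16.9%, between 23.6% and 37.6% and between 38.6% and 44.3% in the same populations. The sum of the 3 genes was between 68.9 and 117 RPKM in MaSC/basal, between 55.1 and 75.0 in LP and between 46.8 and 56.5 in ML libraries. Among the ETS members, *Elf3* made up between 83.3% and 88.3% of the sum in MaSC/basal, between 43.5% and 46.3% in LP and between 66.4% and 77.3% in ML libraries. The ETS sum itself was between 23.9 and 32.7 RPKM in MaSC/basal, between 402 and 546 in LP and between 244 and 298 in ML libraries.

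**Figure D1:**
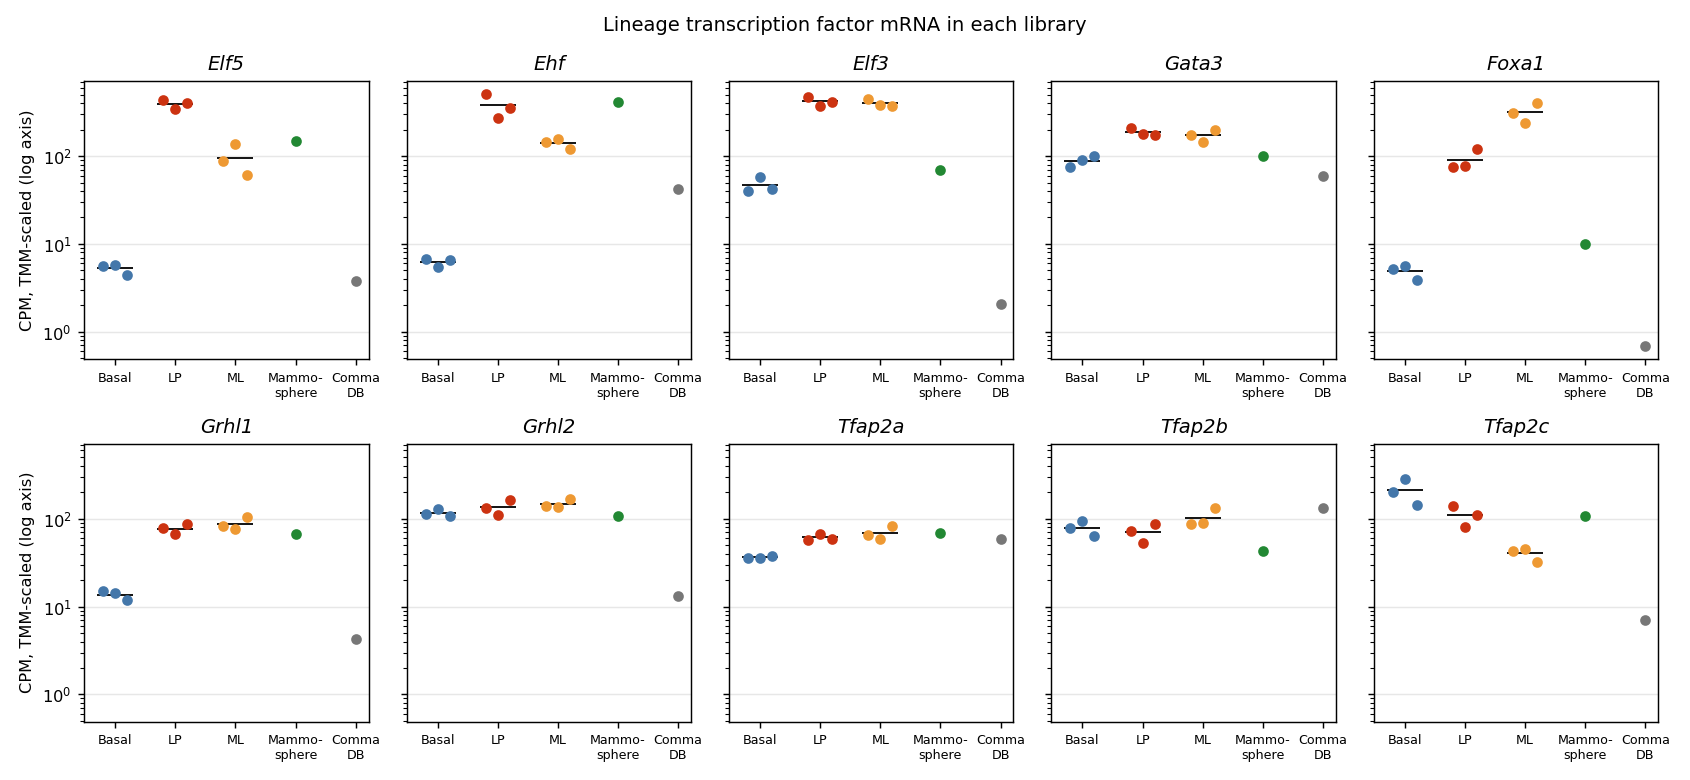
Level of each gene in TMM-scaled CPM (log axis) in every library, with 1 point for each library and a line at the mean of the 3 libraries of a sorted population. *Elf5* and *Ehf* step down from LP to ML, *Foxa1* steps up, *Elf3*, *Gata3*, *Grhl1* and *Tfap2a* stand at like heights in LP and ML, and *Tfap2c* falls from MaSC/basal to ML.

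**Figure D2:**
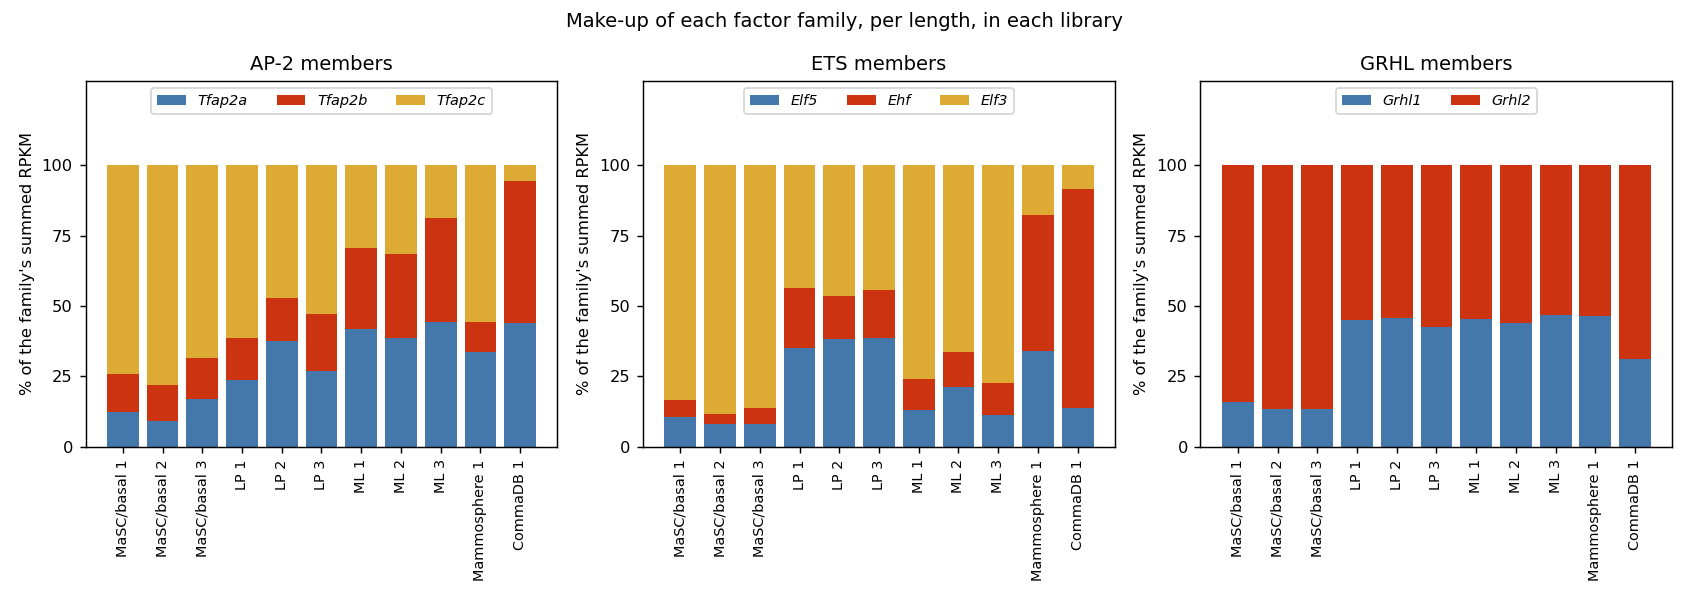
Share of each gene in the summed RPKM of its family (% of the AP-2, ETS and GRHL members, stacked bars) for each library. *Tfap2c* narrows from between 68.5% and 78.2% in MaSC/basal to between 18.8% and 31.4% in ML libraries, and *Grhl1* widens from at most 15.7% in MaSC/basal to at least 42.6% in LP libraries.

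By these calls, 4 genes were shared by LP and ML without a called difference between them (*Elf3*, *Gata3*, *Grhl1* and *Tfap2a*), and 3 were shared and unequal, with *Elf5* and *Ehf* above in LP and *Foxa1* above in ML. None of the 10 genes was called higher than MaSC/basal in 1 luminal population alone, and *Grhl2*, *Tfap2b* and *Tfap2c* were not sorted by the rule, since none of them was called higher than MaSC/basal. In LP against MaSC/basal 7 members were called higher and 1 lower, where 28.0% of all genes tested were called higher and 29.4% lower. In ML against MaSC/basal it was again 7 higher and 1 lower, against 29.7% and 28.9% of all genes. Both contrasts use the same MaSC/basal libraries. In LP against ML 3 members were called higher and 1 lower, against 14.3% and 17.5% of all genes. The median log2 fold change of the 10 members was 1.78 for LP and 1.82 for ML over MaSC/basal and -0.03 for LP over ML, where the medians over all genes tested were 0.01, 0.01 and -0.01.

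**Figure D3:**
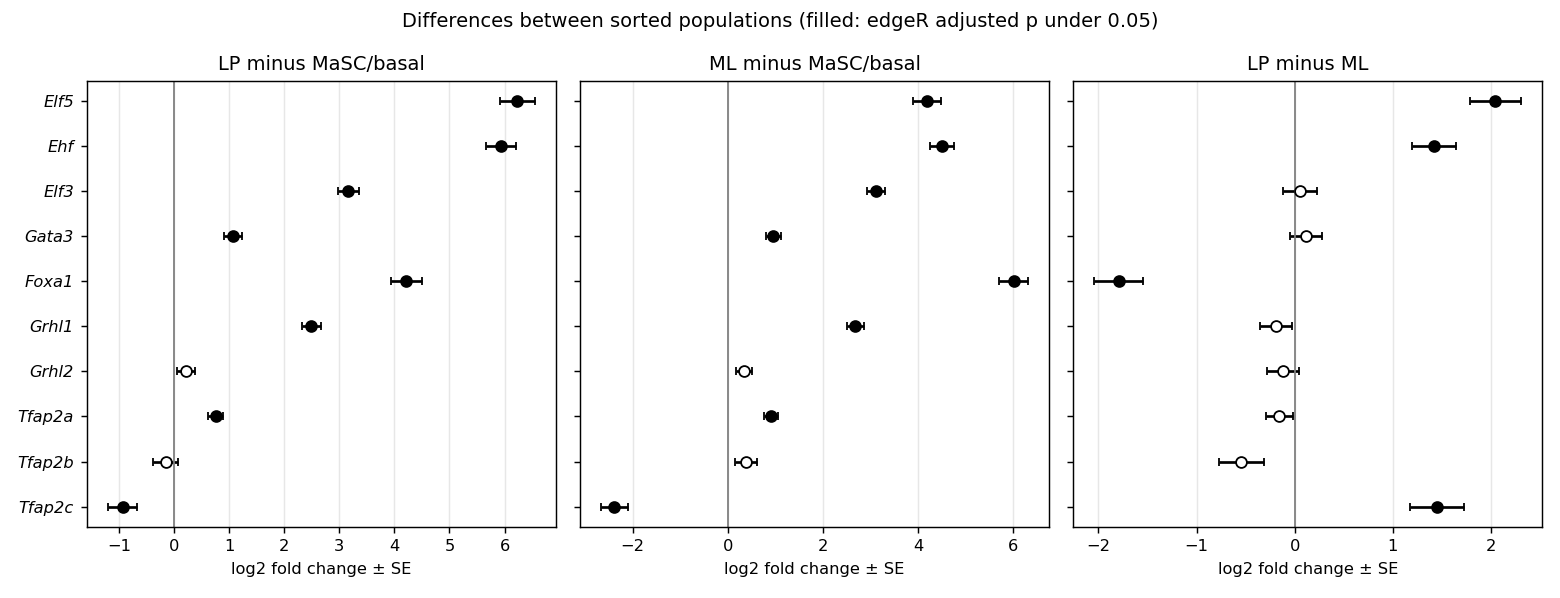
Log2 fold change (x axis, with SE bars) of each gene in the 3 contrasts of sorted populations, with filled points for genes called by edgeR at an adjusted p under 0.05. The scale of the LP minus ML panel is narrower than that of the other panels, and *Elf5*, *Ehf* and *Tfap2c* lie to its right (2.04, 1.42 and 1.45) and *Foxa1* to its left (-1.79).

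Genes known to act with these factors were described from lists, all of which were chosen with earlier results of these data known. Of 16 epithelial genes known as targets of GRHL2, 15 were called higher in LP and the same number in ML over MaSC/basal, with none lower. Of all genes tested, 28.0% and 29.7% were called higher in these contrasts. The median log2 fold change of the list was 2.51 and 2.66, against 0.01 and 0.01 over all genes. *Cldn7*, a claudin of tight junctions, went from 6.87 ± 0.86 CPM in MaSC/basal to 286 ± 24.7 in LP and 282 ± 57.3 in ML (SD, n = 3), and *Marveld2*, which encodes tricellulin, from 3.12 ± 0.25 to 117 ± 11.6 and 87.6 ± 5.78 CPM. The gene without a call, *Ovol1*, stood at 34.4 ± 16.7, 50.4 ± 23.1 and 54.0 ± 9.80 CPM. *Grhl2* itself passed no test in these contrasts, and *Grhl1* did. Between LP and ML only *Marveld2* was called higher (0.41) and *Spint1*, a protease inhibitor, lower (-0.45) on the log2 scale. Over all genes, 14.3% were called higher and 17.5% lower there. *Cdh1* and *Epcam* of this list are also among the luminal markers.

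Of 9 hormone-sensing genes, 7 were called higher in ML over MaSC/basal and none lower, and 8 were called lower in LP than in ML. In LP over MaSC/basal 6 were called higher and 2 lower, among them *Greb1*, an oestrogen-responsive gene. Of all genes tested, 29.7% were called higher and 28.9% lower in ML over MaSC/basal, and 17.5% lower in LP than in ML. The shares in LP over MaSC/basal were 28.0% higher and 29.4% lower. *Prlr*, the prolactin receptor gene, had a mean of 21.6 ± 1.88 CPM in the MaSC/basal libraries, against 862 ± 385 CPM for LP and 3969 ± 1013 CPM for ML. *Pgr*, the progesterone receptor gene, differed by -2.49 between LP and ML (SE 0.33, edgeR adjusted p = 0.00108), and *Tbx3*, a T-box factor, by -2.38 (SE 0.26, edgeR adjusted p = 8.00e-04). *Tbx3* was at 24.7 ± 2.43 CPM in MaSC/basal and 25.2 ± 8.68 in LP. *Xbp1*, a factor of secretory cells, was the gene without a call between LP and ML (0.32, SE 0.14, edgeR adjusted p = 0.103). *Esr1*, *Pgr* and *Prlr* are also among the ML markers.

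Of 8 alveolar and progenitor genes linked to ELF5, all 8 were called higher in LP and in ML over MaSC/basal, and 6 were called higher in LP than in ML. The shares of all genes called higher in these contrasts were 28.0%, 29.7% and 14.3%. *Csn3*, a casein gene, went from 46.2 ± 4.36 CPM in MaSC/basal to 6541 ± 1241 in LP and 986 ± 691 in ML, and *Lalba*, the lactalbumin gene, from 7.90 ± 3.46 to 1226 ± 246 and 129 ± 124 CPM. *Csn2*, another casein gene, varied widely among LP libraries, at 2684 ± 2188 CPM. *Ltf*, the lactoferrin gene, stood at 1394 ± 338 CPM in LP and 1404 ± 610 CPM in ML, and *Aldh1a3* differed by 0.35 (SE 0.35, edgeR adjusted p = 0.472). *Kit*, *Cd14* and *Aldh1a3* are also among the LP markers.

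**Figure D4:**
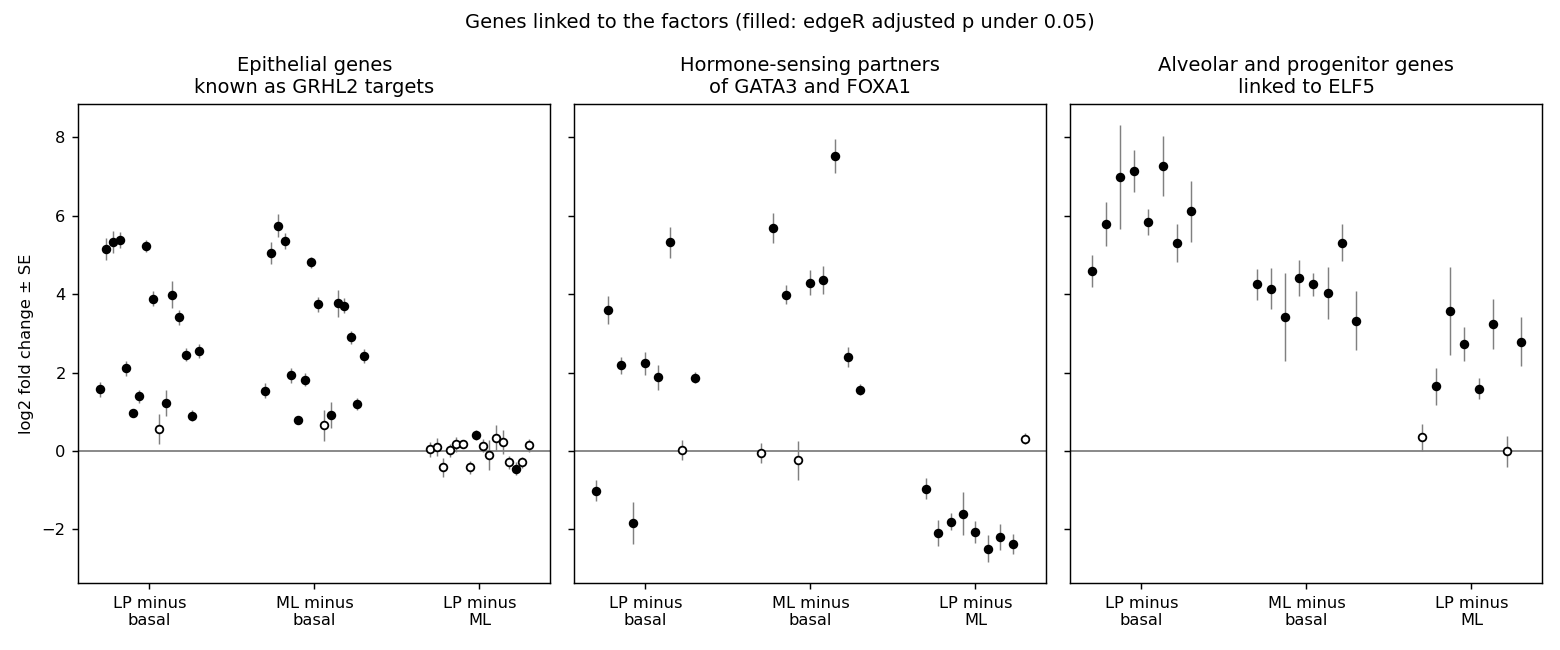
Log2 fold change (y axis, with SE bars) of the genes of 3 lists linked to the factors, for LP minus MaSC/basal, ML minus MaSC/basal and LP minus ML, with genes in alphabetical order within each column and filled points for genes called by edgeR at an adjusted p under 0.05. The GRHL2 target genes stay near 0 between LP and ML (median 0.08), 8 of 9 hormone-sensing genes lie below 0 there and 6 of 8 ELF5-linked genes are called above it.

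Other ETS and forkhead genes were called in both directions in each contrast. Over all genes tested, 28.0% were called higher and 29.4% lower in LP over MaSC/basal. The shares were 29.7% and 28.9% in ML over MaSC/basal, and 14.3% and 17.5% in LP over ML. Of 18 other ETS genes tested, 3 were called higher and 10 lower in LP over MaSC/basal, 3 higher and 9 lower in ML over MaSC/basal, and 4 higher and 3 lower in LP over ML. *Etv4* and *Etv5*, which act downstream of growth factor receptors, fell from 113 ± 46.7 and 93.0 ± 22.9 CPM in MaSC/basal to 8.39 ± 2.61 and 19.2 ± 4.27 CPM in LP and to 22.8 ± 4.01 and 10.3 ± 1.65 CPM in ML. *Spdef*, an ETS gene of secretory epithelia, rose from 0.81 ± 0.30 to 3.47 ± 0.19 CPM in LP and 9.06 ± 0.49 CPM in ML. Of 22 other forkhead genes tested, 7 were called higher and 8 lower in LP over MaSC/basal, 6 higher and 10 lower in ML over MaSC/basal, and 6 higher and 4 lower in LP over ML. *Foxi1* rose from 0.82 ± 0.03 CPM in MaSC/basal to 94.9 ± 6.02 in LP and 23.7 ± 10.6 in ML, with LP above ML (1.99, SE 0.27, edgeR adjusted p = 0.00106), while *Foxq1* stood at 2.11 ± 0.76, 10.6 ± 1.93 and 36.4 ± 6.16 CPM and was lower in LP than in ML (-1.77, SE 0.26, edgeR adjusted p = 0.00142).

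Of the 3 GATA and FOG genes tested besides *Gata3*, *Gata2* was called lower in LP over MaSC/basal (0.34 ± 0.20 against 1.49 ± 0.12 CPM), and none was called in ML over MaSC/basal. *Zfpm1*, which encodes the cofactor FOG1, passed no test, with a MaSC/basal mean of 20.6 ± 1.06 CPM, an LP mean of 17.7 ± 4.52 and an ML mean of 23.2 ± 1.87. In LP over ML 1 gene of this list was called higher, *Zfpm2*, which encodes FOG2. It was low, at 0.96 ± 0.56 CPM in LP and 0.29 ± 0.13 CPM in ML (edgeR adjusted p = 0.0346). In LP replicate 3, 3 reads corresponded to 0.160 CPM. Of 4 other grainyhead and CP2 genes, *Tfcp2l1* was called higher in LP (106 ± 16.2 CPM) and ML (97.7 ± 7.86 CPM) than in MaSC/basal (17.1 ± 6.95 CPM), and no gene of this list was called between LP and ML. Of 6 AP-2 genes and cofactors tested, 4 were called higher and 2 lower in LP over MaSC/basal, 3 higher and 2 lower in ML over MaSC/basal, and 2 higher and 1 lower in LP over ML. The shares over all genes are those given above beside the ETS and forkhead counts. *Cited1*, a coactivator that is also an ML marker, was at 4.02 ± 0.53, 65.8 ± 38.1 and 320.0 ± 52.3 CPM. *Kctd15* and *Kctd1*, which encode inhibitors of AP-2 proteins, both fell in LP and ML. *Kctd15* was at 59.3 ± 9.76, 10.1 ± 1.27 and 12.2 ± 0.59 CPM.

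In the mammosphere library *Elf5* and *Ehf* were far above their level in the cells the culture came from, while *Foxa1* and *Elf3* differed from it much less. Differences here are log2 CPM with a prior count of 2 minus the MaSC/basal mean, and 1 library gives no test. The mammosphere library is in batch 1, as is MaSC/basal replicate 1 (*Foxa1* at 5.19 CPM), while MaSC/basal replicates 2 and 3 are in batch 2. *Elf5* was at 150 CPM (6632 reads), 28.4-fold the MaSC/basal mean, and *Ehf* at 415 CPM (18393 reads), 66.7-fold. *Ehf* thus lay within the LP range and *Elf5* between the ML and LP ranges. *Grhl1* was at 67.3 CPM, 4.95-fold the MaSC/basal mean and within the LP range, and *Foxa1* at 9.92 CPM, 2.03-fold and below every LP library, a difference of 1.02 that was 0.87 without MaSC/basal replicate 3 and 0.99 with DESeq2 size factors, short of 2-fold. *Elf3* was at 69.6 CPM (difference 0.59), *Gata3* at 100.2 CPM (0.19) and *Grhl2* at 109 CPM (-0.09), all within 2-fold of MaSC/basal. *Tfap2a* was at 69.7 CPM (0.94), *Tfap2b* at 43.0 CPM (-0.86) and *Tfap2c* at 109 CPM (-0.90). Past 2-fold, 4 of 10 members were higher and 0 lower, against 19.7% of all genes tested higher and 20.0% lower, with a median of 0.76 over the members and -0.01 over all genes. The family member *Grhl3*, at 53.6 CPM against a MaSC/basal mean of 2.71 ± 1.04, was the highest of any library type. The summed markers in this library were 5372 CPM (basal), 3162 (luminal), 523 (LP), 281 (ML), 982 (fibroblast), 59.8 (skeletal muscle), 196 (pericyte), 18.8 (immune), 11.8 (endothelial) and 0.18 (adipocyte). The part of these cell types in the member values was not tested.

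In CommaDB 5 of the 10 transcripts were past 2-fold below the MaSC/basal mean, 4 were within 2-fold of it and 1 was past 2-fold above. CommaDB is in batch 3, which holds no MaSC/basal library, so batch, line and strain cannot be told apart in these differences. *Elf3* was at 2.04 CPM (60 reads), 22.1-fold below the MaSC/basal mean, *Tfap2c* at 7.11 CPM, 28.3-fold below, *Grhl2* at 13.2 CPM, 8.72-fold below, and *Grhl1* at 4.26 CPM, 3.16-fold below. *Foxa1* was at 0.68 CPM (20 reads), 6.74-fold below. *Ehf* alone stood past 2-fold above, at 41.9 CPM and 6.75-fold, and *Elf5* was at 3.74 CPM (difference -0.47). *Gata3* (59.2 CPM, -0.57), *Tfap2a* (59.0 CPM, 0.69) and *Tfap2b* (132 CPM, 0.77) were within 2-fold. Of the members 1 was higher and 5 lower past 2-fold, against 16.9% and 24.8% of all genes tested, with a median of -1.12 over the members and 0.02 over all genes. The luminal markers summed to 211 CPM in this library (with *Krt8* at 16.4), the basal markers to 1593, the LP markers to 60.5, the ML markers to 53.2, the fibroblast markers to 2093 and the pericyte markers to 8.20. None of the 5 luminal markers was at 0, and the part of cell identity in the member values was not tested. *Tfap2b* and *Tfap2a* held 50.4% and 43.9% of the AP-2 sum per length in the line and *Tfap2c* 5.64%.

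**Figure D5:**
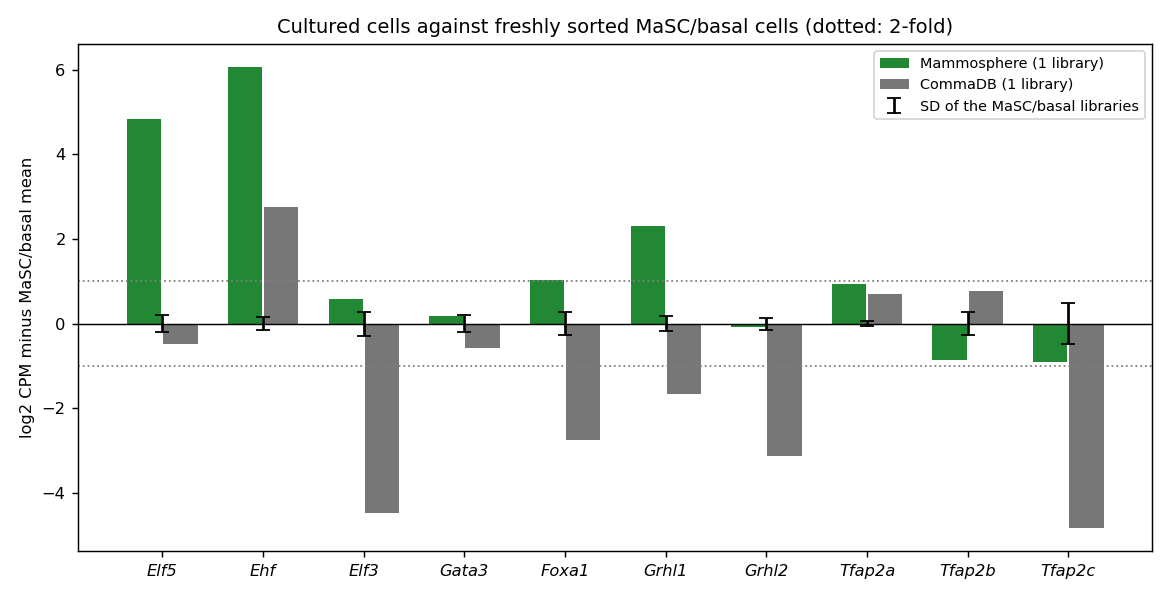
Log2 CPM of each gene in the mammosphere and CommaDB libraries minus the mean of the MaSC/basal libraries (bars, 1 library each), with the SD of the MaSC/basal libraries around 0 and dotted lines at 2-fold. *Ehf* is raised in both (6.06 and 2.75), *Elf5* in the mammosphere library alone (4.83 against -0.47).

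The genes beside the members were read from the annotation. The gene with a count row nearest to *Foxa1* on the lower coordinate side, *Gm20016* (25653 bases away), was between 0.12 and 0.21 CPM in MaSC/basal, between 2.33 and 10.1 in LP and between 17.0 and 30.2 in ML libraries. *Ttc6*, which overlaps *Foxa1* in RefSeq, was between 0.09 and 0.12, between 2.40 and 10.3 and between 11.5 and 33.8 CPM. Both were lower in LP than in ML, *Gm20016* by -2.07 (SE 0.45, edgeR adjusted p = 0.00739) and *Ttc6* by -1.93 (SE 0.52, edgeR adjusted p = 0.0198). *Sstr1*, a somatostatin receptor gene on the other side at 663392 bases, was between 2.28 and 3.57 CPM in MaSC/basal and at most 0.06 CPM in any LP or ML library. *Cat*, the catalase gene 2915 bases beyond *Elf5*, was higher in LP than in ML (0.94, SE 0.17, edgeR adjusted p = 0.00297) and higher in LP than in MaSC/basal (0.65, SE 0.16, edgeR adjusted p = 0.00654). Unlike *Elf5*, *Cat* passed no test in ML over MaSC/basal (-0.29, SE 0.16, edgeR adjusted p = 0.154). *A930006I01Rik*, between *Elf5* and *Ehf*, was at most 0.11 CPM in any library.

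*Ncald*, a calcium sensor gene 2606 bases beyond *Grhl2*, was between 1.03 and 1.77 CPM in MaSC/basal, between 69.6 and 98.3 in LP and between 9.98 and 30.2 in ML libraries, although *Grhl2* passed no test. *Bmp7*, the gene nearest to *Tfap2c* on the higher coordinate side at 309390 bases, was between 120.0 and 168 CPM in MaSC/basal, between 1.13 and 3.71 in LP and between 1.27 and 2.78 in ML libraries. *Klf11*, 33980 bases beyond *Grhl1*, was between 40.0 and 54.0 CPM in MaSC/basal, between 77.0 and 125 in LP and between 83.9 and 105 in ML libraries, both called higher (edgeR adjusted p = 7.31e-04 and 0.00138), and *Taf1b* on the other side of *Grhl1* passed no test. *Gcnt2*, 121530 bases beyond *Tfap2a*, was lower in LP than in ML (-1.28, SE 0.30, edgeR adjusted p = 0.00995). It was higher in ML than in MaSC/basal (0.84, SE 0.29, edgeR adjusted p = 0.0320) and passed no test in LP over MaSC/basal (-0.45, SE 0.29, edgeR adjusted p = 0.214). *Rnpep*, 4227 bases beyond *Elf3*, was higher in LP than in MaSC/basal (0.65, SE 0.16, edgeR adjusted p = 0.00513). *Apip*, the gene on the other side of *Ehf*, was lower in ML than in MaSC/basal (-0.46, SE 0.15, edgeR adjusted p = 0.0256), and *Zfp706* beside *Grhl2* passed no test. The other neighbours (*Gpr37l1*, *1700061F12Rik*, *Gm13262*, *Ofcc1*, *Tfap2d*, *Pkhd1* and *Fam209*) were below the limit for testing.

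Other transcripts overlap some members. *4930412O13Rik*, antisense to *Gata3* in GENCODE, was between 11.3 and 24.3 CPM in MaSC/basal, between 15.4 and 24.7 in LP and between 31.4 and 72.0 in ML libraries, and its exons share 0 bases with those of *Gata3*. *9230102O04Rik*, on the same strand, shares 77 exon bases with *Gata3* and was at most 10.5 CPM. The exons of *Elf3*, *Gata3*, *Grhl2* and *Tfap2a* overlap antisense genes annotated by GENCODE, by between 73 and 380 bases for each antisense gene with shared exons. The library kit does not mark strand, so reads from such stretches cannot be assigned to 1 gene.

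The retained genes whose log2 CPM followed each member most closely over the 11 libraries were named by Pearson correlation, as a description. *Elf5* was closest to *Spns3* (0.999), *Tnfsf13* (0.997) and *Pde9a* (0.993), and *Ehf* to *Slc5a9* (0.991), *Me1* (0.991) and *Ntn1* (0.989). *Elf3* was closest to *Epb41l4b* (0.998), the luminal keratin gene *Krt8* (0.996) and *Tbc1d8* (0.992), and *Foxa1* to *Cxcl17* (0.996), *Tox3* (0.995) and *Mtus1* (0.993). *Gata3* was closest to *Nek5* (0.974), *Trafd1* (0.970) and *Pfkfb3* (0.970). The leading genes of the remaining members were *Bnipl* for *Grhl1* (0.996), *Gprc5c* for *Grhl2* (0.992), *Cert1* for *Tfap2a* (0.979), *Prmt3* for *Tfap2b* (0.934) and *Fam181b* for *Tfap2c* (0.989). With the 9 sorted libraries alone, 1 of the 3 named genes was kept for *Elf5* and for *Tfap2a* and 0 for the others, so the names rest on the 2 cultured libraries as well.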

How the data were processed

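RNA was sequenced as single-end reads, and the authors aligned the reads to mm10 (GRCm38) with Rsubread and assigned them to Entrez genes with featureCounts. The submitters' processing notes also name CASAVA 1.8.0, edgeR 3.6.2 and limma 3.20.5. The deposited counts are raw reads per gene for 27179 genes, neither normalised nor filtered, in 1 table for each library, and the exon length of each gene is given beside them. How reads with several matching genes were treated is not given in the sources used here. Symbols were taken from a RefSeq table of GRCm38 for 25275 genes, and all 10 members matched. The members and the gene lists were chosen with earlier results of these data known.

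The analysis used edgeR 4.0.16 (R 4.3.3). The 15422 genes that exceeded 0.5 CPM in 3 or more libraries were TMM-scaled and fitted with 1 mean per sample type over all 11 libraries, and the quasi-likelihood test was adjusted by Benjamini-Hochberg over all genes fitted. A gene was called at an adjusted p under 0.05. The SE is the log2 fold change divided by the square root of the F statistic. RPKM is CPM divided by exon length in kilobases and was used to compare levels between genes. The mammosphere and CommaDB libraries have no replicate, so their levels were compared with the MaSC/basal mean as log2 CPM with a prior count of 2 and described as past 2-fold or not. A gene was called shared when higher than MaSC/basal in both LP and ML, unequal when LP and ML also differed, and of 1 population when higher in 1 and different between LP and ML in the same direction. All 10 members are named, as are up to 3 genes of each list with the largest fold change in a contrast, the 3 genes most like a member, its neighbours and genes that overlap it. *Ovol1*, *Xbp1*, *Aldh1a3*, *Greb1* and *Kctd1* complete small counts and were named after their values were seen. A further gene of the hormone-sensing list is counted with its list and not reported here by name.

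Library batch pairs LP and ML libraries, as given by the labels. Deviations from the population means correlated at 0.320, 0.313 and 0.526 between LP and ML libraries of the same batch, and at between -0.42 and 0.09 between those of different batches. The main test has no batch term and does not use this pairing. With batch as a replicate block, 5638 genes were called between LP and ML, against 4899 in the main test. MaSC/basal replicates 2 and 3 both belong to batch 2. Replicates differed by more than counting noise in every population (chi-square per gene between 52.5 and 186). Depth sets the precision of low values, and the floor of 3 reads covers counting error alone: without molecular identifiers, PCR copies of 1 molecule are counted as separate reads. The alternatives were DESeq2 size factors, no scaling, voom from limma 3.58.1, DESeq2 1.42.0 with its Wald test, other filters, the 9 sorted libraries alone, batch as a replicate block, a prior count of 0.5 and leaving out each sorted library. The tests were also run on simulated counts. The changes planted there were larger than the differences of *Grhl2*, *Tfap2b* and *Tfap2c*, so that run does not bear on their calls.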

Additional observations from a re-analysis of the deposited data

How the results depend on the processing

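Of the log2 fold changes of the 10 members in the 3 contrasts, 501 values under 17 alternatives each kept their direction and their side of the threshold, 6 turned in sign, 2 gained a call and 1 lost it. Each of the 6 reversals was in a difference without a call. Without a scaling factor the LP minus ML difference was -0.12 for *Elf3*, -0.0636 for *Gata3* and -0.71 for *Tfap2b* (edgeR adjusted p = 0.0455), 2 members were called lower in LP than in ML, 2 members were past 2-fold higher in CommaDB, the median of all genes in LP over ML was -0.19, and 29.4% of the calls between LP and ML were higher in LP, against 45.0% with TMM. In CommaDB and the mammosphere library the median of all genes moved to 0.31 and 0.22 without scaling, and the share of genes past 2-fold that were higher to 53.8% and 59.7% from 40.5% and 49.6%, with *Tfap2b* in CommaDB (1.06) and *Tfap2a* in the mammosphere library (1.16) then past 2-fold and *Grhl2* in the latter at 0.14. With batch as a replicate block *Tfap2b* was called in LP over ML (-0.54, edgeR adjusted p = 0.0379) and 2 members were called lower there. The block changed no other call among the members.

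Leaving out 1 library in turn gave LP minus ML values between -0.0181 and 0.16 for *Elf3*, between -0.0072 and 0.23 for *Gata3* and between -0.25 and 0.0358 for *Grhl2*, and LP minus MaSC/basal values between -0.32 and 0.0354 for *Tfap2b*. The members called lower in LP over MaSC/basal were between 0 and 1, the loss being *Tfap2c* without MaSC/basal replicate 2 (-0.67, edgeR adjusted p = 0.0564), and those past 2-fold lower in the mammosphere library between 0 and 1, the change being *Tfap2c* without MaSC/basal replicate 3 (-1.14). Over all genes, 4899 were called between LP and ML, and 3083 without ML replicate 1. *Foxa1* in the mammosphere library lay just past 2-fold and fell short of it with DESeq2 size factors (0.99) and without MaSC/basal replicate 3 (0.87), which left 3 members past 2-fold higher there. In the 3 tested contrasts, the other calls of the members held under the 17 alternatives. The lowest read counts behind a member were 20 for *Foxa1* and 60 for *Elf3*, both in CommaDB. The cause of the changes was not tested.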
